A study of Mus musculus with 9 samples.

Results

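Mature eosinophils (Eos) were described here by setting the RNA level of each gene beside the trimethylation of lysine 4 of histone H3 (H3K4me3) at its promoter, in the same sorted cell type. All 23471 genes of the RNA tables entered, and the members were the 2 Eos RNA libraries and the Eos H3K4me3 library, 3 of the 9 libraries of the series. The RNA level of a gene was its RPKM (reads scaled by transcript length and library size) summed over its transcripts. A gene had a promoter peak when a unique H3K4me3 interval was annotated as promoter to it in the authors' peak table, which was the case for 11876 genes (50.6%). Eos were sorted for Siglec-F and CCR3 on their surface. All cells came from Balb/c mice without treatment, whose marrow was pooled. The preceding stage, used for comparison, was the eosinophil progenitor (EoP), negative for lineage markers, with CD34 and CD125 and low for c-kit, and the granulocyte-macrophage progenitor (GMP) stood before it. The 2 RNA libraries of a cell type came from separate sorts. The chromatin came from 1 sort, and the labels do not say whether an RNA library came from the same cells. The H3K4me3 values therefore have no replicate, and the spread between the RNA libraries measures these 2 sorts of pooled marrow.

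Eosinophils are granulocytes that carry cationic proteins in their granules, depend on interleukin-5 and take part in allergy and defence against parasites. H3K4me3 is laid down around transcription start sites by methyltransferase complexes that CxxC proteins and the transcription machinery bring to unmethylated, CpG-rich DNA. It marks the promoters of most transcribed genes, and also many CpG-rich promoters with little or no RNA.

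A set of 6 promoters is shown to give the range of sequences behind the results. Ccr3 and Il5ra are of genes that define eosinophils, and S100a9 and Lcn2 of abundant genes without a promoter peak. B2m and Zbtb17 have the peaks of highest fold among the 6. Each is the 250 bases before the annotated start, 5′ to 3′ on the gene's strand, from RefSeq on GRCm38.p6, with every CG dinucleotide in capitals. They lie at chr9:124021721-124021970 (Ccr3, plus strand), chr6:106749038-106749287 (Il5ra, minus), chr3:90695722-90695971 (S100a9, minus), chr2:32387740-32387989 (Lcn2, minus), chr2:122147437-122147686 (B2m, plus) and chr4:141444423-141444672 (Zbtb17, plus).
Ccr3: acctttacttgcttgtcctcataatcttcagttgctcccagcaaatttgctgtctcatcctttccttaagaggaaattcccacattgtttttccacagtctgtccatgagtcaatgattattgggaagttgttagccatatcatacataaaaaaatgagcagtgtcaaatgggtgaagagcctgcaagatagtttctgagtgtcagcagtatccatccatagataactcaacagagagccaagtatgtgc
Il5ra: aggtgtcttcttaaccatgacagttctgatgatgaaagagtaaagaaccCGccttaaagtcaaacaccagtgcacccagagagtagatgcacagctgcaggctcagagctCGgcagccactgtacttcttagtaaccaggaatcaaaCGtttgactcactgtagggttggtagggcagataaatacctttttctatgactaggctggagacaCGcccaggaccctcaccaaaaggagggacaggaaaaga
S100a9: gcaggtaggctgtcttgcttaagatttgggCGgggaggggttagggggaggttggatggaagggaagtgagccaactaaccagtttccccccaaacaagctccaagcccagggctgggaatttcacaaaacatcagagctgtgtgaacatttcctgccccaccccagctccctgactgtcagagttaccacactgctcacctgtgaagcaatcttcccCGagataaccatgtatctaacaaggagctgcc
Lcn2: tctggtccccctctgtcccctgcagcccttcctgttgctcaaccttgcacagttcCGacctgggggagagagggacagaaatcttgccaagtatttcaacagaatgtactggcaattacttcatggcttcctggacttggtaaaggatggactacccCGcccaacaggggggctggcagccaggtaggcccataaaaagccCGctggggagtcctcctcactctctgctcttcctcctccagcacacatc
B2m: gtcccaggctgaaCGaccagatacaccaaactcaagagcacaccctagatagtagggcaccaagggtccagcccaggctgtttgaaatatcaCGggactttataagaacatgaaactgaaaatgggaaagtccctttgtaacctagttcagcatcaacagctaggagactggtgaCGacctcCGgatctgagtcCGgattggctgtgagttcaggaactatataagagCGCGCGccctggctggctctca
Zbtb17: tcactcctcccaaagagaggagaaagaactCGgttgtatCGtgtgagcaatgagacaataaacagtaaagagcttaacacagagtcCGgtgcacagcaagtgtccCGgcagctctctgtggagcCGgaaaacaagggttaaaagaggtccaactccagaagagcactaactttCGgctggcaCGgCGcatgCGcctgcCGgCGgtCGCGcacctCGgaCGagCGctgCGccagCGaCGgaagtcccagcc

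The CG count in these 250 bases was 0 for Ccr3, 4 for Il5ra, 2 for S100a9, 3 for Lcn2, 8 for B2m and 19 for Zbtb17. B2m and Zbtb17 were thus the richest of the 6. Their folds were 9.34 and 24.2, beside a median of 9.14 over all marked genes. The abundant, unmarked S100a9 and Lcn2 were as poor as the marked Ccr3 and Il5ra. Over all 32851 RefSeq windows of 300 bases (250 before the start and 50 after it), 12830 had an Eos H3K4me3 interval within 1000 bases of the start. These windows held a median of 22 CG dinucleotides, against 4 in the 20021 windows without one. The share of windows with an interval was 5.79% at 0 to 4 CG, 20.6% at 5 to 9, 62.4% at 10 to 19, 84.0% at 20 to 29 and 85.6% at 30 or more. The median fold of the interval in these bins was 5.39, 6.99, 9.20, 9.57 and 9.07, so it rose over the first 4 bins and not in the last. The letters TATAAA, on either strand, stood in 6.36% of the windows with an interval, 18.3% of those without and 13.6% of all windows. The letters GGGCGG, on either strand, stood in 65.6%, 16.4% and 35.7%, and GATAA in 15.1%, 32.0% and 25.4%. A match is a description of these letters only, and GGGCGG contains a CG and so counts with it. The median share of G and C was 61.7% in windows with an interval and 48.3% in those without. TATAAA and GATAA consist mostly of A and T, and their shares were not adjusted for this composition.

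The Eos label was set beside 3 markers. CCR3 and Siglec-F were used to sort Eos and CD125 to sort EoP, so their genes are no independent check of the label. Ccr3, the eotaxin receptor, was at 225.66 and 242.54 RPKM in Eos libraries 1 and 2, and at 2.61 and 4.62 RPKM in the EoP libraries. Il5ra, the interleukin-5 receptor alpha chain (CD125), was at 56.6 and 88.6 RPKM in Eos and 49.3 and 49.2 in EoP. Siglec5, the symbol under which the files list Siglec-F, was at 39.8 and 44.1 RPKM in Eos and 45.0 and 45.7 in EoP. The Ccr3 and Il5ra values of the groups did not overlap, with Eos higher, and both EoP values of Siglec5 lay above the Eos values. By edgeR's quasi-likelihood test with Benjamini-Hochberg adjustment, Ccr3 was higher in Eos than EoP by 6.55 on the log2 scale (SE 0.40, adjusted p = 1.218e-05). In the same edgeR test Il5ra was higher by 1.11 (SE 0.31, adjusted p = 0.0183), and Siglec5 did not pass (log2 difference 0.41, SE 0.23, adjusted p = 0.185). The Il5ra call was lost in 4 of 9 alternatives, with adjusted p = 0.0835 without EoP library 1, 0.106 without EoP library 2, 0.0628 without Eos library 2 (all edgeR) and 0.1002 by limma on log2(RPKM + 0.5), and its log2 difference was 0.57 without Eos library 2 and 0.52 by limma. Siglec5 passed the edgeR test in 1 alternative, without Eos library 1 (log2 difference 0.59, adjusted p = 0.0391). The sign for Siglec5 depended on the scale, since edgeR's TMM scaling put Eos above EoP and RPKM put it below. Siglec5 had the broadest promoter interval of the 3, 1327 bases on chr7:43351392-43352718 with a fold enrichment of 9.58. Ccr3 had 2 promoter intervals, of 411 and 517 bases on chr9:124022150-124022560 and chr9:124022752-124023268, with folds of 4.12 and 4.35. Il5ra had 2 short ones of 221 and 182 bases on chr6 with folds of 5.55 and 4.01, and 2 more intervals in introns. The marker with the least RNA of the 3 thus had the longest and most enriched interval.

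Genes of other cell types were also present, above all those of neutrophils. All 22 measured members of a list of 24 neutrophil markers reached at least 1 RPKM in both Eos libraries, and 17 of them were among the 1000 most abundant genes. Their summed level was 25863 RPKM in library 1 and 21587 in library 2, against 8732 and 6092 for the 14 eosinophil granule genes, and no neutrophil marker was at 0. Retnlg alone made up much of that sum: the other 21 markers summed to 14856 and 6145 RPKM, which in library 2 is close to the granule genes. In these bulk samples, fewer cells of a type and less RNA per cell cannot be told apart, and the part of other cells in the results below was not tested. Smaller sums came from the monocyte and macrophage list (957 and 600 RPKM, 13 of 24 members at 1 RPKM or more in both), the erythroid list (57.6 and 103), the mast cell and basophil list (93.0 and 63.4), the B cell list (49.0 and 16.4), the megakaryocyte list (45.1 and 53.1) and the T and natural killer cell list (170 and 48.3). Of the last, 159.17 and 37.3 RPKM were Nkg7, a granule membrane gene of cytotoxic cells. Lyz2 (lysozyme) made up 689 and 429 RPKM of the monocyte and macrophage sum. The highest megakaryocyte member had a mean of 43.7 RPKM, so 1 gene made up most of each of these sums.

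The 2 Eos RNA libraries held 10940000 and 10790618 estimated counts, and their levels had a Spearman correlation of 0.970 across the 14488 genes above 0 in both. In all, 5546 genes were listed at 0 in both and 7751 reached 1 RPKM in both. Genes with near-identical copies are uncertain, since the labels and headers do not say how reads with several matches were counted: Ear3 and Ear12 carried identical values, and Gapdh was at only 1.67 and 1.39 RPKM. The Eos peak table held 45030 summits in 33847 unique intervals, of which 15672 (46.3%) were annotated as promoter, holding 69.5% of the bases covered. Promoter intervals had a median length of 480 bases and a median fold enrichment of 7.34, against 152 bases and 2.60 for the 7913 intergenic ones. The score, fold and length of an interval are the authors' own. The authors' q was above 0.05 for 2.73% of promoter intervals, 55.2% of intron intervals and 61.1% of intergenic intervals.

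Nearly all genes with appreciable RNA had a promoter peak, and the share did not rise further towards the top of the ranking. Of the 100 most abundant genes 92 had a promoter peak (92%). The share was 96.25% at ranks 101 to 500, 96.6% at 501 to 1000, 95.3% at 1001 to 2000 and 95.75% at 2001 to 4000. It was 91.3% at ranks 4001 to 8000, where the median level was 2.60 RPKM, 69.6% at 8001 to 12000, where it was 0.449 RPKM, and 14.05% below rank 12000. Of the 7751 genes of at least 1 RPKM in both libraries, 7273 (93.8%) had a promoter peak. Of the 5546 genes listed at 0 in both, 418 (7.54%) had one. Peaks were annotated to 54.3% of genes with a protein-coding transcript and to 24.1% of the 2891 genes with only noncoding transcripts. These 2 groups also differed in RNA, with median levels of 0.261 and 0.0112 RPKM, and they were not compared at equal level.

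**Figure D1:**
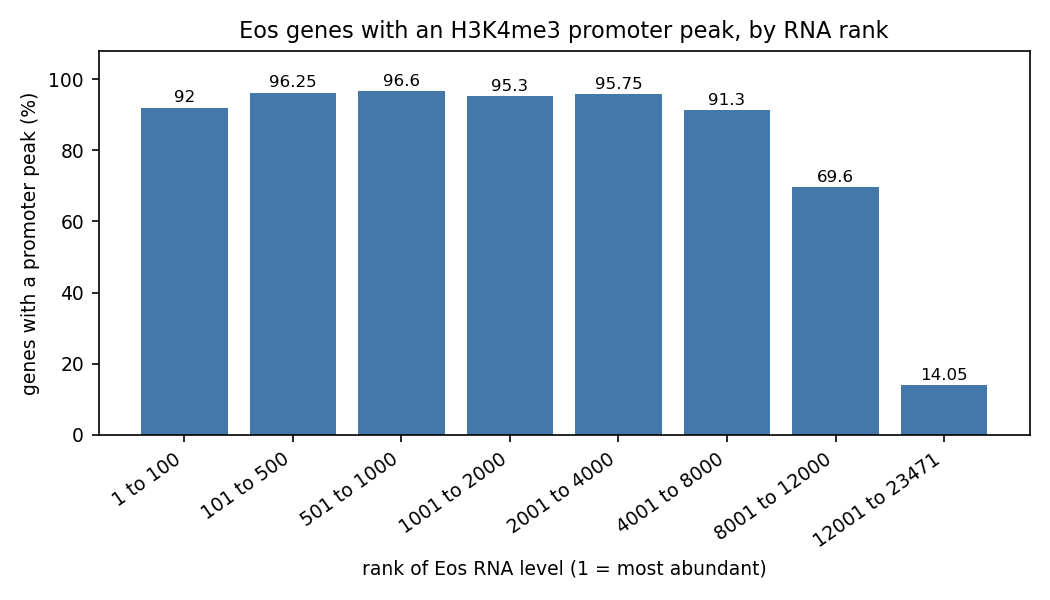
Share of genes with an H3K4me3 promoter peak (percent, vertical axis) in bins of the rank of the mean log2 Eos RNA level (horizontal axis, 1 = most abundant). The bars stand between 91.3% and 96.6% through rank 8000 and at 14.05% below rank 12000.

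The length of DNA marked at a promoter followed RNA abundance, whereas its fold enrichment did so over only part of the range. The median summed length of a gene's promoter intervals was 1053 bases at ranks 1 to 100, 1022 at 101 to 500, 984 at 501 to 1000, 990 at 1001 to 2000, 903 at 2001 to 4000, 815 at 4001 to 8000, 662 at 8001 to 12000 and 337 below. The median of the highest promoter fold was 6.74 at ranks 1 to 100, rose over the next bins through 8.30, 9.01 and 9.33 to 10.03 at ranks 2001 to 4000, and was 9.94, 8.82 and 5.47 in the last 3 bins. The most abundant genes thus had the longest marked stretches with a fold below that of genes of middle level. The rank correlation across the 10969 genes with a promoter peak and RNA above 0 in both libraries was 0.433 (Spearman's rho) between level and length, and 0.150 between level and fold. The genes share the same 2 RNA libraries and 1 chromatin library, and they are not independent replicates. Restricted to genes of at least 1 RPKM in both libraries, the rho with length was 0.239 and the rho with fold changed sign to -0.128. Over all 10969 genes, length and fold were themselves nearly unrelated (rho 0.052). Among the 6182 of these 10969 genes with only 1 promoter interval, without the limit of 1 RPKM, the rho of level was 0.448 with length and 0.239 with fold.

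**Figure D2:**
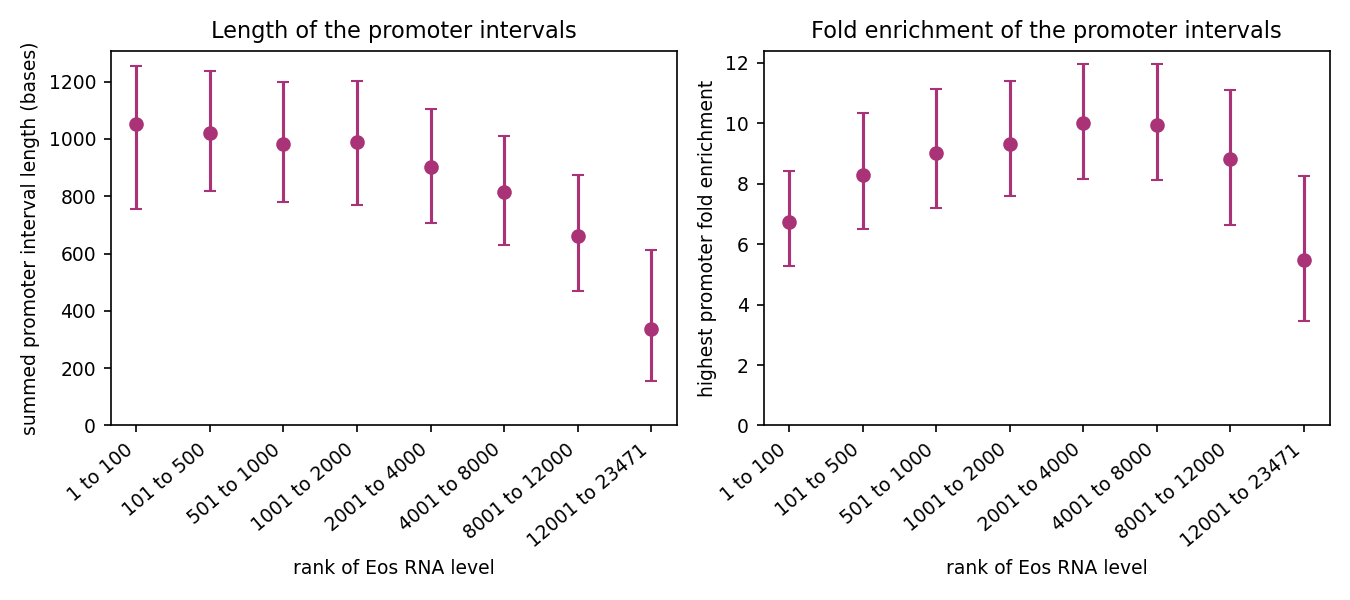
Medians (points) and quartiles (bars) of the summed promoter interval length in bases and of the highest promoter fold enrichment, over genes with a promoter peak in the same rank bins. Median length falls from 1053 to 337 bases along the ranking, and median fold is highest, 10.03, at ranks 2001 to 4000.

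Read from the chromatin side, marked genes were divided by summed length into 4 groups of 2969. The group with the shortest length (136 to 548 bases) had a median of 0.308 RPKM, and the next groups had 2.21 and 3.34 RPKM. The group with the longest (1010 to 3697 bases) had 5.78 RPKM, and 15.97% of it belonged to the 1000 most abundant genes, against 2.46% of the shortest group. Divided by fold in the same way, the 4 groups had medians of 0.403, 2.83, 3.14 and 3.003 RPKM, so the step lay between the lowest group and the rest. The share of genes listed at 0 was 10.04% in the group of shortest length and 0.741% in that of the longest.

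The added length lay downstream of the start. Among genes with a single annotated start and a promoter peak, the position 500 bases downstream was covered by an interval in 85.9% of 830 genes of ranks 1 to 1000, 77.9% of 2549 genes of ranks 1001 to 4000, 61.5% of 3289 genes of ranks 4001 to 8000 and 36.7% of 2499 genes of ranks 8001 to 12000. At 1000 bases downstream the shares were 38.0%, 17.4%, 5.81% and 3.72%. At the start itself the order differed: 47.1% of the genes of ranks 1 to 1000 were covered there, against 59.6%, 68.1% and 62.7% in the other groups. At 250 bases upstream the shares were 27.6%, 41.7%, 43.6% and 41.0%. Coverage peaked 300 bases downstream (92.4%) in the most abundant group and 175 bases downstream (81.3%) in the least abundant of the 4.

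**Figure D3:**
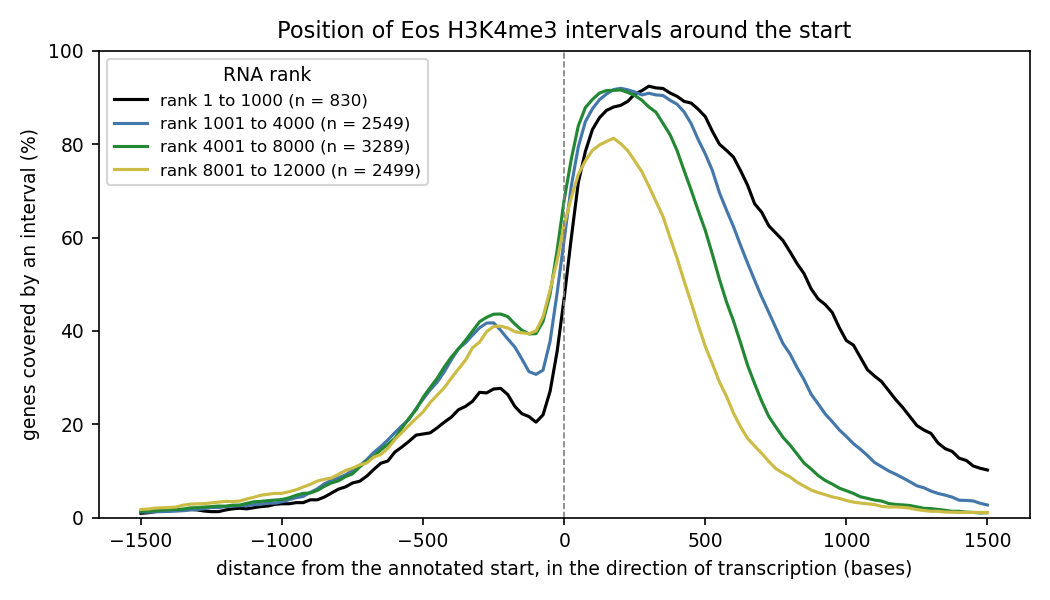
Percent of genes covered by an Eos H3K4me3 interval (vertical axis) at each distance in bases from the annotated start (horizontal axis, positive downstream), for genes with 1 start and a promoter peak in 4 groups of RNA rank (lines). At 500 bases downstream the lines stand at 85.9%, 77.9%, 61.5% and 36.7%, and the most abundant group is lowest at the start.

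Among the 12 most abundant genes, 10 had a promoter peak, and the fold was below the median of all marked genes (9.14) at every one but B2m. Retnlg, a secreted resistin-like protein of neutrophils, ranked first at 11007 and 15442 RPKM, with 3 promoter intervals of 613 bases in all and a highest fold of 4.90. It was at 5.68 and 3.76 RPKM in EoP, and neither EoP nor GMP had a promoter peak there. Rn45s, the ribosomal RNA precursor, was at 6279 and 4323 RPKM with a fold of 3.47. S100a9 (5816 and 2403 RPKM) and S100a8 (3722 and 1392), the subunits of the calcium-binding protein calprotectin, had no promoter peak and were higher in library 1. Actb, cytoplasmic actin, was at 2004 and 2364 RPKM with 435 bases and a fold of 3.95, and Tmsb4x, an actin-binding thymosin, was at 1677 and 1442 RPKM with 1090 bases and a fold of 4.33. B2m, the light chain of class I histocompatibility molecules, had the highest fold of the 12, at 9.34 over 1199 bases, with 1111.5 and 1018 RPKM. Ngp, a neutrophil granule gene (1250.5 and 895 RPKM), had a single interval of 156 bases. Alox15, a lipoxygenase that eosinophils use to make lipid mediators, was at 829.97 and 1111 RPKM with 1251 bases and a fold of only 3.80. The summed length thus ranged from 156 to 1251 bases among the marked genes of these 12.

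The RNA of most eosinophil granule protein genes was below that of EoP. Of 14 measured genes 9 had a promoter peak in Eos (64.3%, beside 50.6% of all genes), and 9 were among the 1000 most abundant. Of the 11 that reached 1 RPKM in both libraries 9 had a peak (81.8%, beside 93.8% of all such genes). Ear7 (2607 and 1647 RPKM) and Ear1 (1847 and 1526), ribonucleases of the eosinophil-associated family, had 679 and 628 bases, and Prg2, major basic protein, had 630 bases at 1717 and 1058 RPKM. Prg2 was at 84395 and 71559 RPKM in EoP, and its log2 difference of -5.34 (SE 0.83) had an adjusted p of 0.00118 by edgeR's quasi-likelihood test. Epx, eosinophil peroxidase, was at 52.6 and 21.2 RPKM in Eos and at 4018 and 3775 in EoP, and it had 1 promoter interval of 158 bases with a fold of 3.47. Prg3, a homologue of Prg2, at 29.4 and 15.3 RPKM, had no promoter interval in Eos, while EoP and GMP had one. Its nearest Eos interval began 1027 bases downstream of its start, spanned 633 bases and had a fold of 4.42. Counting any interval within 1000 bases of a start instead of the promoter class marked 50.7% of all genes. The Prg3 interval lay just beyond that distance, so the lack of a promoter peak there is not a lack of the mark nearby. By the edgeR test 11 of the 12 tested granule genes were lower in Eos and none was higher. Without EoP library 1 that count was 4, without EoP library 2 it was 7, and by the DESeq2 Wald test it was 4. Over all 14324 genes tested, 2540 (17.7%) were lower in Eos than EoP and 2733 (19.1%) were higher. Without EoP library 1 these were 1361 and 1658, without EoP library 2 they were 1454 and 1794, and limma on log2(RPKM + 0.5) called 4311 lower and 1440 higher. Over the 9838 genes tested both ways, the median log2 difference was -0.12 in the edgeR fit and -0.54 in that limma fit, and differences are to be read against these medians. The several Ear genes are near-identical copies, and their separate values are uncertain. Ear2, Ear3 and Ear12 had the same promoter length (618 bases) and fold (6.42), and Ear6 and Ear7 shared an interval of 679 bases. The 9 marked granule genes are therefore not 9 separate peaks.

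Eosinophil surface receptors were marked at 19 of 29 measured genes (65.5%, beside 50.6% of all genes). Of the 23 that reached 1 RPKM in both libraries 17 were marked (73.9%), a lower share than the 93.8% of all such genes. Itgam, the integrin alpha M chain (243 and 323 RPKM), had 906 bases, and Itgb2, its beta partner (187 and 228), had 1454 bases with a fold of 8.78. Emr1, the F4/80 receptor (98.7 and 163 RPKM), had 1396 bases, and Csf2rb, the chain shared by the receptors for interleukin-5, interleukin-3 and GM-CSF (38.6 and 56.1), had the highest fold of the list, 12.2. Those of at least 1 RPKM in both without a promoter peak included C3ar1 (complement C3a receptor, 11.4 and 16.3), Il1rl1 (interleukin-33 receptor, 8.07 and 20.1), Fpr2 (13.2 and 7.61), Fpr1 (formyl peptide receptor, 4.42 and 3.42) and Pilra (3.27 and 2.60). By the edgeR test 20 of 27 tested receptors were higher in Eos than EoP and none was lower (background 19.1% and 17.7% of all genes tested), and no alternative fit called 1 lower. Markers of other cell types went both ways in the same comparison. Higher were 21 of 22 neutrophil, 14 of 24 monocyte and macrophage and 12 of 16 erythroid markers, and 0, 2 and 1 were lower. The B cell list had 7 of 13 higher and 0 lower, and the T and natural killer cell list 6 of 13 higher and 1 lower. Mast cell and basophil markers had 1 of 11 higher and 9 lower, and megakaryocyte markers 1 of 10 higher and 2 lower. The part of other cells in the receptor result was not tested.

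Among transcription factors of the lineage, 22 of 23 that reached 1 RPKM in both libraries had a promoter peak (95.7%), near the 93.8% of all such genes. A peak was present at 25 of 26 measured factors, including factors with little RNA such as Zfpm1, a cofactor of GATA factors (0.887 and 0.885 RPKM, 690 bases), and Gata2 (1.93 and 0.645 RPKM, 308 bases). Sfpi1, which encodes PU.1, had 1857 bases at 71.9 and 62.3 RPKM, and Cebpe, a granulocyte maturation factor, had 1784 bases at 18.9 and 14.5 RPKM. Gata1, the factor on which eosinophil development depends, had 669 bases at 11.1 and 12.6 RPKM. The exception was Ikzf2, a zinc finger factor of the Ikaros family at 18.6 and 23.4 RPKM, whose nearest interval lay 1631 bases upstream and whose promoter was marked in EoP and GMP. Enzymes of lipid mediators were marked at 9 of 12 genes and at all 8 of at least 1 RPKM in both: beside Alox15, Alox5ap (5-lipoxygenase activating protein, 493 and 663 RPKM) had 837 bases, Alox5 (58.7 and 73.0) had 1325, and Pla2g7 (44.5 and 79.6) had 348.

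Genes that all cells use were marked at a share near that of all genes with RNA. A promoter peak was found at 20 of 20 housekeeping and 79 of 80 cytosolic ribosomal protein genes, beside 50.6% of all genes. At 1 RPKM or more in both libraries these were 20 of 20 and 57 of 57, beside 93.8% of all such genes. The median summed lengths were 1046.5 and 786 bases. A peak was found at 26 of 27 genes for writers, readers and erasers of H3K4 methylation, and 25 of 26 at that level. Of these, Kmt2c, a methyltransferase, was the most abundant (14.4 and 18.6 RPKM, 1701 bases). The machinery gene without a peak was the Y-linked demethylase gene Kdm5d. Interferon response genes had peaks at 21 of 29, and at 18 of 20 of at least 1 RPKM in both. Immediate early genes had them at 22 of 25, and at 13 of 15 of that level. The latter differed between the libraries: Fos was at 11.3 and 71.8 RPKM and Dusp1, a phosphatase gene, at 60.4 and 269.58, both higher in library 2, with marked lengths of 1068 and 1479 bases. In EoP the same genes were high in library 1 only (Fos 163.32 against 0.609 RPKM), so no direction between the stages is drawn for them. Of 65 replication-dependent histone genes 42 had a peak, and 20 of 24 of at least 1 RPKM in both. The marked histone genes had a median summed length of 461 bases. Of 54 developmental regulators, of which 26 were listed at 0 and only Pax5 reached 1 RPKM in both libraries, 9 had a peak, with a median length of 156 bases.

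**Figure D4:**
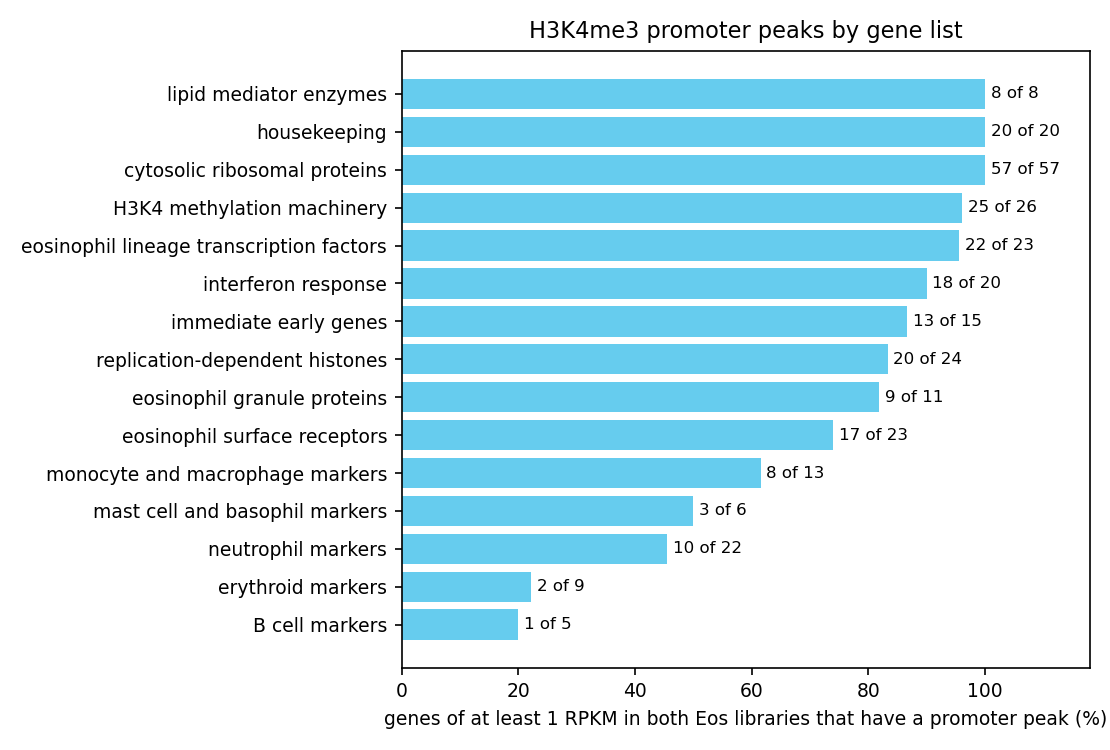
Share (percent, horizontal axis) of the genes of at least 1 RPKM in both Eos libraries that had a promoter peak, for each gene list with 5 or more such genes (bars, with the counts). The 8 lipid mediator, 20 housekeeping and 57 ribosomal protein genes all had one, against 10 of 22 neutrophil markers.

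The 1000 most abundant genes included 40 without a promoter peak. Of these 37 had a protein-coding transcript, 2 were small RNA genes (Mir546 and Scarna9) and 2 were unnamed gene models, 1 of which is also counted as coding. The neutrophil list held 10 of the 40. The most abundant after S100a9 and S100a8 were Mpo (myeloperoxidase, 1345 and 396 RPKM), Elane (neutrophil elastase, 765 and 170), Lcn2 (lipocalin 2, an iron-siderophore binding protein, 336 and 220), Cybb (the heavy chain of the phagocyte oxidase, 221 and 225), Ctsg (cathepsin G, 332 and 84.0) and Prtn3 (proteinase 3, 301 and 66.02). They were followed by Hist1h4d (a histone H4 gene, 171 and 78.2 RPKM), Lst1 (103 and 106) and Fcnb (a ficolin, 160 and 40.6). Mpo, Elane, Ctsg, Prtn3, Hist1h4d and Fcnb were higher in library 1, while Cybb and Lst1 were level between the libraries.

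Of the 40, 20 had no interval of any class annotated to them, among them S100a8, Elane, Lcn2, Cybb, Ctsg, Prtn3 and Hist1h4d of those just named. Another 10 had an interval in an exon or intron, and 9 had some interval within 3000 bases of a start. For S100a9 the nearest interval was 13431 bases from the start, beyond the far end of the gene, and for S100a8 a short one of 156 bases lay 2793 bases downstream. For Elane the nearest was 11498 bases upstream and for Cybb 152024 bases upstream. Mpo had an exon interval of 144 bases that began 1404 bases downstream, with a fold of 2.98. Plac8, a small protein gene of myeloid cells (71.1 and 20.1 RPKM), and Ikzf2 had theirs at 1411 bases downstream and 1631 upstream.

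The promoters of 20 of the 40 genes were marked in GMP and those of 9 in EoP, and 19 were marked in neither. Elane and Prtn3 had a promoter peak in GMP alone, where Elane was at 2437 and 2061 RPKM, and Mpo and Ctsg had one in GMP and EoP. Mpo was at 4058 and 3711 RPKM in GMP and 303 and 408 in EoP. S100a9, S100a8, Lcn2, Lst1 and Fcnb had no promoter peak at any of the 3 stages, and S100a9 was at 897 and 256 RPKM in GMP. Of the 960 abundant genes with a promoter peak in Eos, 920 had one in EoP and 928 in GMP.

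Abundant genes without a peak differed between the 2 sorts more often than those with one. Of the 40, 16 (40%) were at least 2-fold higher in library 1 than in library 2 and none was 2-fold higher in library 2. Of the 960 with a peak, 27 (2.81%) were 2-fold higher in library 1 and 7 in library 2. The median log2 ratio of library 1 to library 2 was 0.56 without a peak and -0.05 with one. The 16 were S100a9, S100a8, Mpo, Elane, Ctsg, Prtn3, Hist1h4d, Fcnb, Nkg7, Ms4a3, Plac8, Ly6c2, Serpinb1a, Hp, Cst7 and C3. The 7 genes with a peak that were higher in library 2 included Fos, Dusp1, Btg2 and Ier5 of the immediate early list. The number without a peak was 47 when abundance was ranked in library 1 alone and 43 in library 2 alone, and 32 genes were in both of these lists. All 32 were among the 40.

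**Figure D5:**
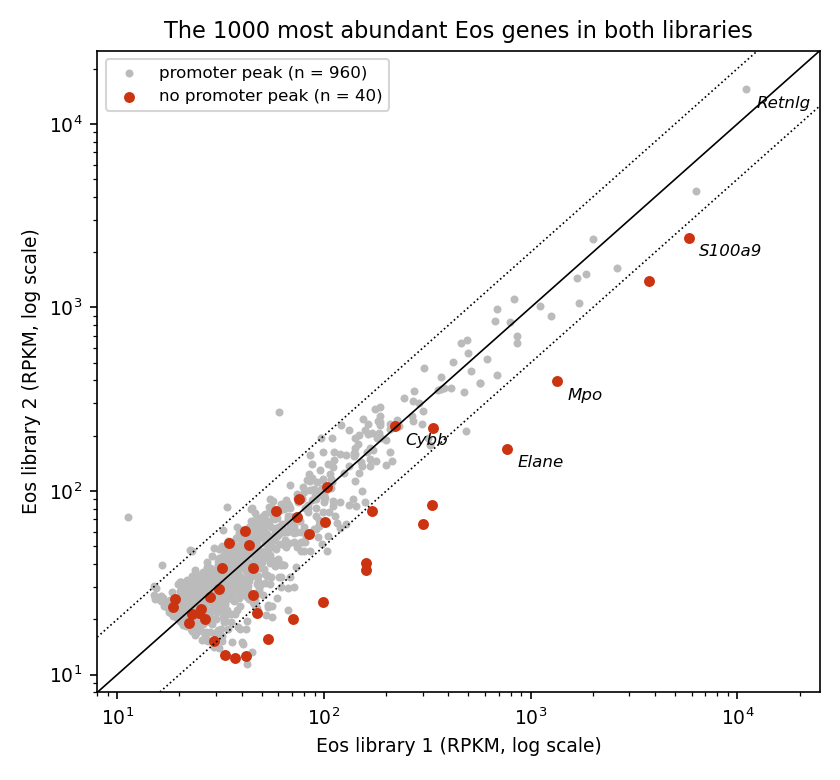
RPKM of the 1000 most abundant genes in Eos library 1 (horizontal) and library 2 (vertical), both on log scales, with equal levels as a solid line and 2-fold differences dotted. Genes without a promoter peak (red, n = 40) include 16 at or below the lower dotted line, and of the 960 with a peak (grey) 27 lie there.

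In the edgeR comparison with EoP, 28 of the 40 were higher in Eos and 3 were lower, beside 527 and 99 of the 960 with a peak and a background of 19.1% higher and 17.7% lower over all genes tested. Abundance was ranked on the same Eos libraries, so an excess of higher genes is partly set by the choice and nothing is read from it. The 3 lower genes were Hist1h4d, with a log2 difference of -1.77 (SE 0.33), Plac8 with -1.46 (SE 0.41) and Prg3 with -6.24 (SE 0.55). Lower genes numbered 5 without Eos library 1, and Plac8 did not pass edgeR's test without EoP library 1 (adjusted p = 0.0773). Without a peak and higher in Eos were, among others, Lcn2 by 7.48 (SE 0.34), S100a8 by 5.56 (SE 0.80), S100a9 by 5.45 (SE 0.77) and Cybb by 1.65 (SE 0.32) on the log2 scale.

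Peaks with a fold under 4 or a q above 0.05 were few among abundant genes. The promoter fold was under 4 at 16 of the 960, among them Epx, Alox15, Actb and Malat1. A low fold alone was not a weak detection, since −log10 q was 8.96 at Actb and 5.76 at Alox15. For 5 genes the best promoter interval had a q above 0.05: Lyz2 (lysozyme, 689 and 429 RPKM), Mmp8 (neutrophil collagenase, 29.6 and 26.2), Cd177 (a neutrophil surface protein, 32.8 and 19.96), Arhgef3 (20.5 and 27.3) and Aspa (22.1 and 27.8). With these counted as unmarked, 45 abundant genes were without a peak. At 23 of the 960 genes the promoter was marked in Eos and in neither progenitor, a count that includes Mmp8, Cd177 and Aspa with a q above 0.05. The most abundant of them were Retnlg, Ngp, Camp (cathelicidin, 488.8 and 213 RPKM) and Ccr3, followed by Gp49a, an inhibitory immunoglobulin-like receptor (110 and 193). The best marked by fold was Bank1, an adaptor of B cell signalling, with a fold of 10.5 over 549 bases at 32.0 and 43.9 RPKM. Paired receptors of the Lilr and Pir families stood among the 23, as Lilrb4, Lilra6, Pira4, Pira6 and Pira7, and copies of these families share sequence, so that their counts are uncertain.

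The 8 most enriched promoters belonged to genes outside the 1000 most abundant, and so did 6 of the 8 longest. Most marked genes lie outside: of all 11876 with a promoter peak, 960 were among the 1000 most abundant. That share was 15.97% in the group of longest length and 5.86% in the group of highest fold. Gse1 had the greatest summed length, 3697 bases in 5 intervals, at 6.99 and 8.48 RPKM. Ccm2, a vascular adaptor protein gene, had 2671 bases at 27.0 and 29.1 RPKM, Rara, the retinoic acid receptor alpha, 2661 bases at 7.29 and 10.3, and Arhgap25, a GTPase regulator of phagocytes, 2518 bases at 54.1 and 81.5. Hnrnpf (2515 bases), Elmsan1 (2377), Casp8 (2365) and Tnrc6b (2347) completed the first 8, with levels from 4.57 to 14.6 RPKM. The highest fold, 24.2, was at Zbtb17, which encodes the MYC partner MIZ-1, with 0.793 and 0.899 RPKM. Among the others of the 8 most enriched, Asnsd1 had 21.7 at 13.7 RPKM in both libraries, Ddx24 21.5 (4.57 and 4.17 RPKM), Rnf135 21.4 (2.85 and 3.25) and Vps11 20.6 (6.46 and 5.204). Sgsm3 had 20.2 and Fam228b 20.1, the latter with hardly any RNA (0.034 and 0.022 RPKM) and an interval it shares with Pfn4. All 16 genes of these 2 groups had promoter peaks in EoP and GMP too, as had most abundant marked genes (920 of 960 in EoP and 928 in GMP). Of the longest, Ccm2 and Arhgap25 were among the 1000 most abundant.

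Of the 418 genes listed at 0 with a promoter peak, 269 had a protein-coding transcript and 58 were small RNA genes. Their median summed length was 302.5 bases and their median fold 4.79, against 780 bases and 9.14 over all marked genes. An annotated interval was shared with another gene at 159 of the 418, beside 2777 of all 11876 genes with a promoter peak. For 78 of the 418 (18.7%) an interval lay within 1000 bases of the start of a gene of at least 1 RPKM. This was so for 14.7% of all marked genes. The longest included Atp6v0c with 1429 bases, a proton pump subunit with a nearby pseudogene, and Eif3j2 with 1210, each sharing intervals with a copy of itself. Sumo2, a protein modifier used by all cells, was listed at 0 with 3 intervals of 1040 bases. Tmem116 shared 1097 bases with Erp29 (43.0 and 40.2 RPKM), Mageb3 1052 bases with Ctdspl2 (3.14 and 2.24) and L3hypdh 1015 bases with Jkamp (3.48 and 3.29). For genes with near copies, 0 in these tables does not show that there was no RNA. Promoters of 252 of the 418 were marked in EoP and GMP as well. Of the 960 abundant genes with a peak, 920 were marked in EoP and 928 in GMP.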

How the data were processed

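RNA was sequenced in 2 Eos libraries and H3K4me3 chromatin immunoprecipitation in 1, with EoP and GMP libraries of the same kinds for comparison. Per the file headers, the authors' RNA files give an estimated count and an RPKM value per RefSeq transcript, and the authors' peak files give each summit's pileup signal, −log10 p and q, fold enrichment and peak length; replicates were not pooled. The submitters' processing notes name STAR 2.4.0c, Bowtie 1.0.0 and mm10 without roles. Neither the labels nor the headers name the counting tool, peak caller or a control library. The estimated counts deposited are whole numbers.

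Deposited RPKM and counts were summed per gene symbol. Genes were ranked by the mean of log2(RPKM + 0.1) over both Eos libraries, and the first 1000 were called abundant. Peak lines with the same chromosome, start and end were merged, keeping the highest fold and the highest −log10 q. An interval naming several genes counted for each, which held for 2261 promoter intervals. All relations across genes are descriptions without a test, since there is 1 Eos H3K4me3 library, whose read depth is unknown. Eos and EoP RNA were compared with edgeR 4.0.16 (quasi-likelihood, TMM factors, default expression filter, Benjamini-Hochberg over 14324 genes, called at 0.05) on all 6 RNA libraries, which held 5226653 to 12088134 counts. The fit and the interval functions were tested on simulated data. DESeq2 1.42.0 and limma 3.58.1 gave alternatives, as did single libraries, other filters, distances and thresholds.

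Named genes were the 12 most abundant, the 12 most abundant without a promoter peak, the 8 longest and 8 most enriched promoters, the 8 genes at 0 with the longest, up to 4 members of each of 19 gene lists by Eos level and up to 4 of at least 1 RPKM without a peak, and the sort markers; small RNAs and gene models were left out of the rankings. Other genes were named after their values were seen, and a few that the rule names are not reported here. The members and lists were chosen with earlier results of these data known. Promoter sequences were matched by symbol and start (within 100 bases) to RefSeq GRCm38.p6. Fewer than 80% of the genes had a match, so no check of sequence content over gene sets was made, and sequence shares are given over all windows of the table. Analyses used Python 3.11.15, pandas 2.3.3, scipy 1.17.1 and R 4.3.3.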

Additional observations from a re-analysis of the deposited data

How the results depend on the processing

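The share of the 1000 most abundant genes with a promoter peak (96%) was 95.3% to 96.9% in 11 of 12 alternatives, and 93.1% with only the intervals of fold above the median, where 69 abundant genes were without a peak. That number was 23 for the 500 highest and 87 for the 2000 highest genes, by construction, and 31 to 47 in the other 9. The share of all genes with a peak (50.6%) was 54.3% for genes with a protein-coding transcript, 93.8% for genes of at least 1 RPKM in both, 53.8% within 3000 bases, 46.3% for intervals above the median fold and 49.3% for intervals of q at most 0.05, a limit chosen after seeing the data. Of genes at 0 (7.54%) it was 6.36%, 11.6%, 4.003% and 6.02% for coding genes, 3000 bases, intervals above the median fold and the q limit, and 8.61% to 9.67% when either Eos library was left out. The rho of level with length (0.433) was 0.451 for coding genes, 0.239 for genes of at least 1 RPKM, 0.458 within 3000 bases, 0.359 for intervals above the median fold, 0.493 with genes at 0 and 0.396 for the longest interval, and 0.438 to 0.458 without an Eos library. The rho with fold (0.150) reversed to -0.128 for genes of at least 1 RPKM; it was 0.173 within 3000 bases, 0.0645 for intervals above the median fold, 0.243 with genes at 0, 0.127 for the length-weighted mean fold, 0.126 under the q limit, and 0.171 to 0.180 without an Eos library. The causes were not tested. Without an EoP or Eos library in turn, 1658 to 3114 genes were higher and 1361 to 3283 lower in Eos than EoP. Limma on RPKM called 1440 higher and 4311 lower, and 6 of the 40 abundant unmarked genes lower; leave-outs gave 2 to 5. DESeq2 size factors moved the median log2 difference of all genes from 0.02 to 0.13. With a replicate block 2496 were higher and 2467 lower, and 27 and 3 of the 40; same-numbered libraries of EoP and Eos had deviations with a correlation of -0.085, so the numbers were not taken as pairs. The low-value filter gives no share of genes at 0. With 1 chromatin library of unknown depth, a missing promoter peak is one not detected or one annotated to another class, as at Prg3. Short, weakly enriched intervals are the least certain.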
